A study of Mus musculus with 24 samples.

Results

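The transcripts of the lipopolysaccharide (LPS) receptor complex and of its proximal adaptors were followed in mouse bone marrow-derived macrophages (BMDMs). The 10 genes were *Tlr4*, *Cd14*, *Ly96*, *Myd88*, *Tirap*, *Ticam1*, *Ticam2*, *Irak1*, *Irak4* and *Traf6*, taken by name, and every array probe annotated to one of them was used. This gave 15 of the 25697 probes on the array. They covered 9 of the 10 genes, out of 16593 gene symbols in all, because no probe carried the symbol *Irak4*. *Tirap* and *Traf6* had 3 probes each, *Tlr4* and *Ticam1* had 2, and the other 5 genes had 1.

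The study used Illumina MouseRef-8 v2 arrays to ask which LPS-responsive genes depend on the kinase IKKβ and which on the kinase p38, in 2 experiments of 12 arrays each. In the IKKβ experiment, wt cells came from mice with *loxP*-flanked *Ikkβ* alleles and no Cre (*Ikkβ* F/F), and *Ikkβ*-deficient cells from *Ikkβ* F/F:Mx1-Cre mice, all on the C57BL/6 strain. In the p38 experiment, BMDMs of C57BL/6 mice served as control or were given 10 µM SB202190, a chemical inhibitor of p38, for 2 h beforehand. Each of the 4 kinds of cells was taken at 0 h and after 4 h with 100 ng/ml LPS, giving 8 groups of 3 arrays. All cells were grown from the marrow of mice aged 8 to 10 weeks for 7 days in medium with 20% L929-conditioned medium, which supplies macrophage colony-stimulating factor. Mx1-Cre is driven by an interferon-inducible promoter and acts in many cell types besides macrophages. The sample labels also name the macrophage line RAW264.7, whereas the protocols describe primary BMDMs throughout.

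LPS is handed by CD14 to MD-2, encoded by *Ly96*, which sits on the outer part of TLR4 and lets the receptor chains pair. At the plasma membrane the paired receptor recruits TIRAP and MyD88, which gather the kinases IRAK4 and IRAK1 and the ubiquitin ligase TRAF6, and this arm leads to IKKβ, NF-κB and p38. After uptake into endosomes, TLR4 binds TRAM, encoded by *Ticam2*, and TRIF, encoded by *Ticam1*, an arm that drives type I interferon.

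Between 10050 and 11511 probes per array were detected in the IKKβ experiment and between 11038 and 12508 in the p38 experiment, and 12376 and 13523 probes entered the tests. The number of arrays limits the precision of every value. *Ikbkb*, the gene encoding IKKβ, gave 323, 415 and 471 at 0 h in wt cells and 196, 193 and 184 in *Ikkβ*-deficient cells, and at 4 h it was lower by 1.66 on the log2 scale (SE 0.161; limma adjusted p = 0.0142). Of 7 macrophage markers, 5 had a probe and all 5 were detected, while none of the T and NK cell or mast cell and basophil markers was. Of the other marker lists, 5 of 6 probed neutrophil genes were detected in the IKKβ and 4 in the p38 experiment, 2 of 5 dendritic cell, 1 of 3 B cell and 2 of 4 stroma and fibroblast genes in both, and 1 of 2 erythroid genes in the IKKβ experiment only. Genes that LPS normally induces were already high at 0 h on some arrays: *Il1b* read 131, 10304 and 15929 on wt replicates 1, 2 and 3, and 123, 20561 and 3997 on control replicates 1, 2 and 3 of the p38 experiment. Over 8 such genes the median log2 change with LPS was 4.80, 1.29 and 0.94 in wt replicates 1, 2 and 3, and 3.78, 2.12 and 1.41 in *Ikkβ*-deficient replicates. It was 5.87, 0.57 and 4.91 in the p38 control and 4.86, 4.85 and 4.97 with SB202190. Member values are therefore given by replicate.

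The labels of the p38 experiment were not the same in its 2 tables. All 12 normalized columns of the IKKβ experiment had the rank order of the intensity column with the same label, but in the p38 experiment only 1 of 12 did, 7 others had the order of a column with another label, and 4 had the order of none. These 4 were SB202190 replicates 1 and 3 at both times. Among the 7, the labels differed in treatment and time as well as in replicate number. The normalized column of control replicate 3 at 4 h had the order of the intensity column of SB202190 replicate 3 at 0 h. That of SB202190 replicate 2 at 0 h had the order of the intensity column of control replicate 3 at 4 h. The rest of the 7 differed in replicate number only. The SB202190 arrays also differed little from each other, the median log2 SD over all probes being 0.11 before and 0.08 after LPS, where the control had 0.30 and 0.28. Results of the p38 experiment below use the normalized columns under their own labels. They are set beside values without control replicate 2, with control replicate 3 only, and from rank-matched intensities. In the last, the 8 arrays with a normalized column of the same rank order took that column's label. The other 4, SB202190 at both times on BeadChips 1 and 2, had no such column and kept their own label.

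*Tlr4*, the signalling receptor itself, was lower after LPS in wt BMDMs. Probe ILMN_2752966 read 471, 442 and 455 at 0 h on wt replicates 1, 2 and 3 and 196, 203 and 342 at 4 h. All 3 arrays at 4 h lay below all 3 at 0 h, replicate 3 standing at 0.752 of its value at 0 h and replicates 1 and 2 at 0.416 and 0.458. The log2 change was −0.93 (SE 0.228, 95% interval −1.44 to −0.42), which did not pass over all probes (limma adjusted p = 0.272) but did with the replicate number as a block (adjusted p = 0.0306). Leaving out single arrays or replicates moved the change between −1.20 and −0.77. In such bulk samples fewer cells of a type and less RNA per cell cannot be told apart.

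In *Ikkβ*-deficient BMDMs the same probe read 443, 331 and 349 at 0 h and 274, 274 and 387 at 4 h. The groups overlapped, replicate 3 being higher after LPS and replicates 1 and 2 lower. The log2 change was −0.27 (95% interval −0.78 to 0.24; limma adjusted p = 0.919). The change differed from that in wt cells by 0.66 (SE 0.323, 95% interval −0.06 to 1.38), a difference that did not pass (limma adjusted p = 1). With the replicate block its SE was 0.274 and its interval, 0.04 to 1.28, lay above 0, with an unadjusted limma p of 0.0391 and an adjusted p of 1. The other *Tlr4* probe, ILMN_2690004, read between 80.6 and 96.1 and was detected on none of the 12 arrays, so it gave no measure of a change here.

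*Cd14*, the co-receptor that delivers LPS, read 12250.1, 13507 and 24889 at 0 h and 35992, 18304 and 24409 at 4 h in wt cells. The ratio of 4 h to 0 h was 2.94 on replicate 1 and 1.36 on replicate 2, and 0.981 on replicate 3, which was already high at 0 h. The *Ikkβ*-deficient cells gave 11419, 15201 and 21174 at 0 h and 30171, 21118 and 23596 at 4 h, ratios of 2.64, 1.39 and 1.11. The order of the 3 replicates by ratio was that of the LPS-responsive genes in both genotypes, and the groups overlapped. The log2 changes of 0.66 (SE 0.340) in wt and 0.68 (SE 0.340) in *Ikkβ*-deficient cells did not pass (limma adjusted p = 0.769 and 0.849).

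*Ly96*, which encodes the LPS-binding subunit MD-2, read 1249, 575 and 1486 at 0 h and 1299, 782 and 1834 at 4 h in wt cells. In *Ikkβ*-deficient cells it read 1211, 399 and 1296 at 0 h and 1037, 873 and 1995 at 4 h. Replicate 2 was the lowest of its group in all 4 groups, and the spread between replicates was larger than any difference between groups. The log2 change with LPS was 0.27 (SE 0.549) in wt and 0.51 (SE 0.549) in *Ikkβ*-deficient cells, neither of which passed (limma adjusted p = 0.949 and 0.936). With the replicate number as a block the SE was 0.210, and the 95% intervals were −0.21 to 0.74 in wt and 0.04 to 0.98 in *Ikkβ*-deficient cells. Neither change passed with the block (limma adjusted p = 0.4785 and 0.193).

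**Figure D1:**
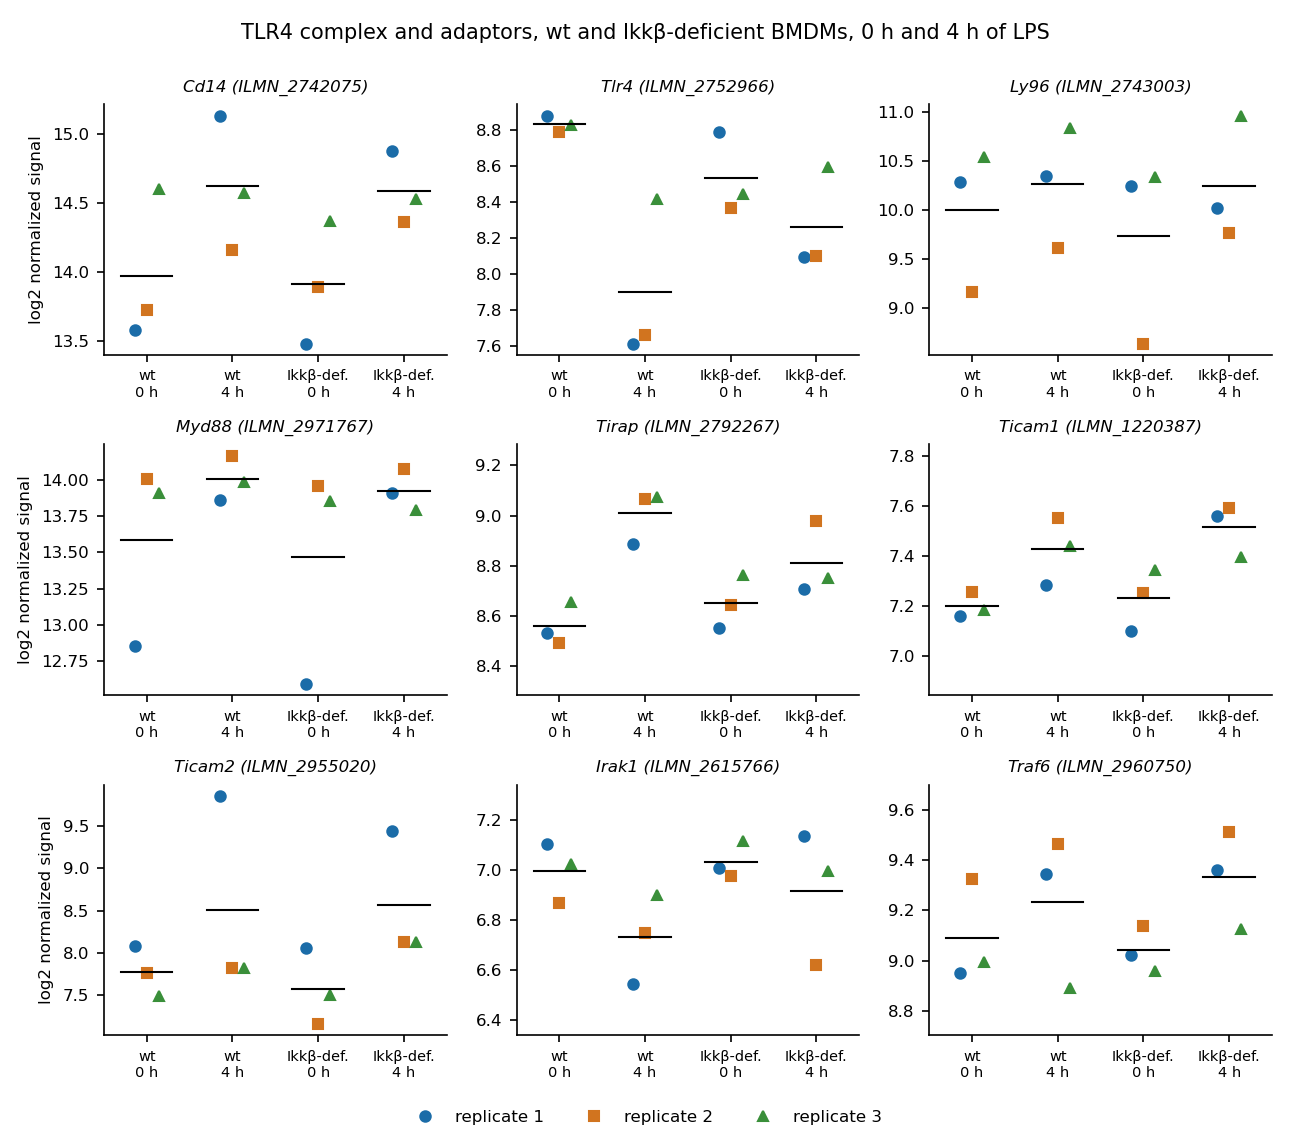
Log2 normalized signal of the brightest probe of each of the 9 measured genes in the IKKβ experiment, by group of 3 arrays, with colour and shape giving the replicate number and the bar the group mean. *Tlr4* in wt cells separates 0 h from 4 h, whereas *Cd14*, *Myd88* and *Ticam2* differ more between replicates than between genotypes.

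The promoters of *Myd88*, *Ticam1*, *Tirap* and *Traf6* are shown because the last 3 were called after LPS in the SB202190-treated cells described further on, while *Myd88*, the adaptor shared by most of these receptors, was not. *Ly96* was called too, but no window was found for it. Each printed sequence is the window from 250 bases before to 50 bases after an annotated start, 5′ to 3′ on the gene's strand, from RefSeq on build GRCm38.p6. Windows were found for 6 of the 10 genes. Capitals mark matches on either strand to simple letter patterns for NF-κB (GGG, any 5 bases, CC), C/EBP (TT, any 2 bases, G, any base, AA), the interferon-stimulated response element (GAAA, any 2 bases, GAAA) and the ETS core CCGGAAG. AP-1, searched as TGANTCA, had no match in these 4 windows.
*Myd88*, chr9:119339969-119340268, minus strand: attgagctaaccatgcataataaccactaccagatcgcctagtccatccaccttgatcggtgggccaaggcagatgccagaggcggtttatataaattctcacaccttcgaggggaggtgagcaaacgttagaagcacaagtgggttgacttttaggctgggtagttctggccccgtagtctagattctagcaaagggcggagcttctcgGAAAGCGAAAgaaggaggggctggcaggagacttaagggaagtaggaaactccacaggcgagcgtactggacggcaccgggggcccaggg
*Ticam1*, chr17:56276718-56277017, minus strand: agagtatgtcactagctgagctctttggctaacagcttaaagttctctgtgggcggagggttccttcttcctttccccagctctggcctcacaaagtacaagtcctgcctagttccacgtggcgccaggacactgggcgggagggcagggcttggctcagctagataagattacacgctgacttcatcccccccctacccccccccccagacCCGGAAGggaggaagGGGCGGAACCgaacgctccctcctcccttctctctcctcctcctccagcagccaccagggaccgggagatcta
*Tirap*, chr9:35199916-35200215, minus strand: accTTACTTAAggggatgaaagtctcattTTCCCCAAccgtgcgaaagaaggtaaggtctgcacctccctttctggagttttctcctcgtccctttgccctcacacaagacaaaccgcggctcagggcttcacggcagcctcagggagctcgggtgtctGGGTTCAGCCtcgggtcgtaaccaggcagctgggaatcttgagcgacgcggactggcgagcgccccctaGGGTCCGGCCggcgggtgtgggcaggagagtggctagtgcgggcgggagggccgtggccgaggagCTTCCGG
*Traf6*, chr2:101678170-101678469, plus strand: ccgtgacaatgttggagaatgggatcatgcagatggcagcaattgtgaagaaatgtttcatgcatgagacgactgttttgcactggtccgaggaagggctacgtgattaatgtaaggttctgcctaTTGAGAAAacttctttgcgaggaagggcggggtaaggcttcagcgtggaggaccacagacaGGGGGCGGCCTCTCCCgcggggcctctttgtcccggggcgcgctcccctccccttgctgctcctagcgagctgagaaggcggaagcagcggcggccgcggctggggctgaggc
The *Myd88* window held the interferon-stimulated response element pattern at −40 from the start and no other. *Ticam1* held the ETS core at −38 and the NF-κB pattern at −23. *Tirap* held the C/EBP pattern at −247 and −221, the NF-κB pattern at −91 and −22 and the ETS core at 43. A second annotated start of *Tirap* gave an overlapping window, not printed, with no C/EBP match. Counted from that start, it held the NF-κB pattern at −151, −82, 2 and 3 and the ETS core at −17. *Traf6* held the C/EBP pattern at −124 and overlapping NF-κB matches at −63 and −57. The windows of *Irak1* and *Irak4* are not printed. Both *Irak1* windows held the NF-κB pattern, at −21 and −20 and at −18 and −17, although *Irak1* was not called. The *Irak4* window held the ETS core at −47 and the NF-κB pattern at −37, and *Irak4* had no probe. Of 32851 such windows in the table, 50.8% held the NF-κB pattern, 40.7% C/EBP, 8.9% the ETS core, 7.8% AP-1 and 3.4% the interferon-stimulated response element, so the first 2 of these patterns occur in a large share of all windows.

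*Myd88*, the adaptor that starts the plasma membrane arm, read 7390.2, 16442 and 15363 at 0 h and 14870.2, 18361 and 16213 at 4 h in wt cells. In the *Ikkβ*-deficient groups the values were 6189, 15929 and 14789 at 0 h and 15363, 17229 and 14190.0 at 4 h. Replicate 1 stood apart, with ratios of 2.01 in wt and 2.48 in *Ikkβ*-deficient cells, and replicates 2 and 3 were already near their LPS level at 0 h. The log2 changes were 0.42 (SE 0.379) and 0.46 (SE 0.379), and neither passed (limma adjusted p = 0.884 and 0.919).

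*Tirap*, the bridge between TLR4 and MyD88, was higher after LPS in wt cells on its brightest probe. ILMN_2792267 read 370.0, 360.4 and 403 at 0 h and 473, 536 and 539 at 4 h, with no overlap between the groups. The log2 change of 0.45 (SE 0.118, 95% interval 0.19 to 0.71) had a limma adjusted p of 0.321, and of 0.0354 with the replicate block. In *Ikkβ*-deficient cells this probe read 376, 400 and 434 at 0 h and 418, 504 and 430.3 at 4 h, groups that overlapped, and the 2 changes differed by −0.29 (95% interval −0.66 to 0.08; limma adjusted p = 1). The other 2 *Tirap* probes gave 0.35 and 0.24 in wt cells and 0.00 and 0.29 in *Ikkβ*-deficient cells, and neither passed with or without the block.

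*Ticam2*, which encodes the TRIF-bridging adaptor TRAM, had the highest ratio of 4 h to 0 h of the members on a single array pair of this experiment. It read 270.1, 217 and 179 at 0 h and 929.6, 227 and 226 at 4 h in wt cells. With *Ikkβ* deleted it read 266, 143 and 181 at 0 h and 694, 280.0 and 279.8 at 4 h, with no overlap. The ratios on replicates 1, 2 and 3 were 3.44, 1.05 and 1.26 in wt and 2.61, 1.96 and 1.55 in *Ikkβ*-deficient cells. The log2 changes were 0.73 (SE 0.553) and 0.99 (SE 0.553), neither of which passed (limma adjusted p = 0.866 and 0.882, and 0.164 and 0.0919 with the block).

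*Ticam1*, encoding TRIF, was slightly higher after LPS on every replicate and both probes. Probe ILMN_1220387 read 143, 153 and 146 at 0 h and 156, 188 and 174 at 4 h in wt cells, and 137, 152 and 162 against 189, 193 and 169 in *Ikkβ*-deficient cells. The groups did not overlap in either genotype, nor did they on the second probe. The log2 changes on the 2 probes lay between 0.22 and 0.28, with limma adjusted p-values from 0.749 to 0.843 without the block.

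*Irak1*, the kinase recruited by MyD88, read 137, 117 and 130.0 at 0 h and 93.4, 107 and 120 at 4 h in wt cells, where replicates 1, 2 and 3 were all lower after LPS but the groups overlapped. In *Ikkβ*-deficient cells it read 129, 126 and 139 against 141, 98.5 and 128. The log2 changes were −0.27 (95% interval −0.61 to 0.07) and −0.12, and neither passed (limma adjusted p = 0.808 and 0.940). *Traf6*, the ubiquitin ligase downstream of the IRAK kinases, was higher on average on all 3 probes, by 0.14 to 0.25 in wt and 0.18 to 0.29 in *Ikkβ*-deficient cells. Its probe ILMN_1259162 did not overlap between 0 h and 4 h in either genotype, with 141, 163 and 153 against 177, 189 and 175 in wt and 157, 158 and 144 against 197, 163 and 162 in *Ikkβ*-deficient cells. The other probes, ILMN_2427560 and ILMN_2960750, did overlap.

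Counted over the members, none of the 14 tested probes passed for LPS in wt cells, against a background of 0.0162% of all probes (2 probes). Of the 14, 3 had an unadjusted limma p under 0.05, against 6.95% of all probes. With the replicate block 2 of 14 passed, *Tlr4* lower and *Tirap* higher, against 5.73% of all probes. In *Ikkβ*-deficient cells none passed, against 0.0%, and 1 probe had an unadjusted limma p under 0.05, against 6.25% of all probes. With the block still none passed in these cells, against 3.2%. Of the member probes, 5 did not overlap in wt cells, 4 higher and 1 lower, where 11.7% of all probes did not. In *Ikkβ*-deficient cells 4 did not, all higher, where 10.6% of all probes did not. The median log2 change of the 14 probes was 0.25 in wt and 0.27 in *Ikkβ*-deficient cells, with 12 of 14 above 0 in each, while the median over all probes was −0.02 in both and 46.4% lay above 0. The summed signal of the neutrophil marker list, of which 5 of 6 probed genes were detected and *Mpo* was not, ranged from 923 to 3768 at 0 h and 2493 to 4075 at 4 h in wt cells. It ranged from 857 to 1635 and from 2993 to 4476 in *Ikkβ*-deficient cells, and its part in these changes was not tested.

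Between the genotypes no member passed at either time. At 0 h the 14 differences, *Ikkβ*-deficient minus wt, lay between −0.30 and 0.27 on the log2 scale, with a median of 0.00 against 0.01 over all probes and a background of 0.0% called. At 4 h they lay between −0.20 and 0.36, with a median of 0.01 on both sides and a background of 0.00808%, a single probe, which was *Ikbkb*. No member had an unadjusted limma p under 0.05 at either time, with the replicate block or without it, nor did the methods' t-test call any after adjustment. A single probe, *Tirap* ILMN_2792268, did not overlap at 0 h, with 434, 430.2 and 461 in *Ikkβ*-deficient cells above 346, 333 and 429 in wt cells, where 3.06% of all probes did not overlap, and none did so at 4 h, where 4.65% did not. *Tlr4* differed by −0.30 (95% interval −0.81 to 0.21) at 0 h and by 0.36 (−0.14 to 0.87) at 4 h, intervals that leave room for differences of either sign. The largest SE of a member in these comparisons was 0.553. At 4 h the summed macrophage marker signal was 31567 to 47441 in *Ikkβ*-deficient and 48773 to 57093 in wt cells, and its part in the member values was not tested. No member passed for the difference of the LPS change between genotypes (0.0% of all probes called), none having an unadjusted p under 0.05 without the replicate block and *Tlr4* alone with it.

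**Figure D2:**
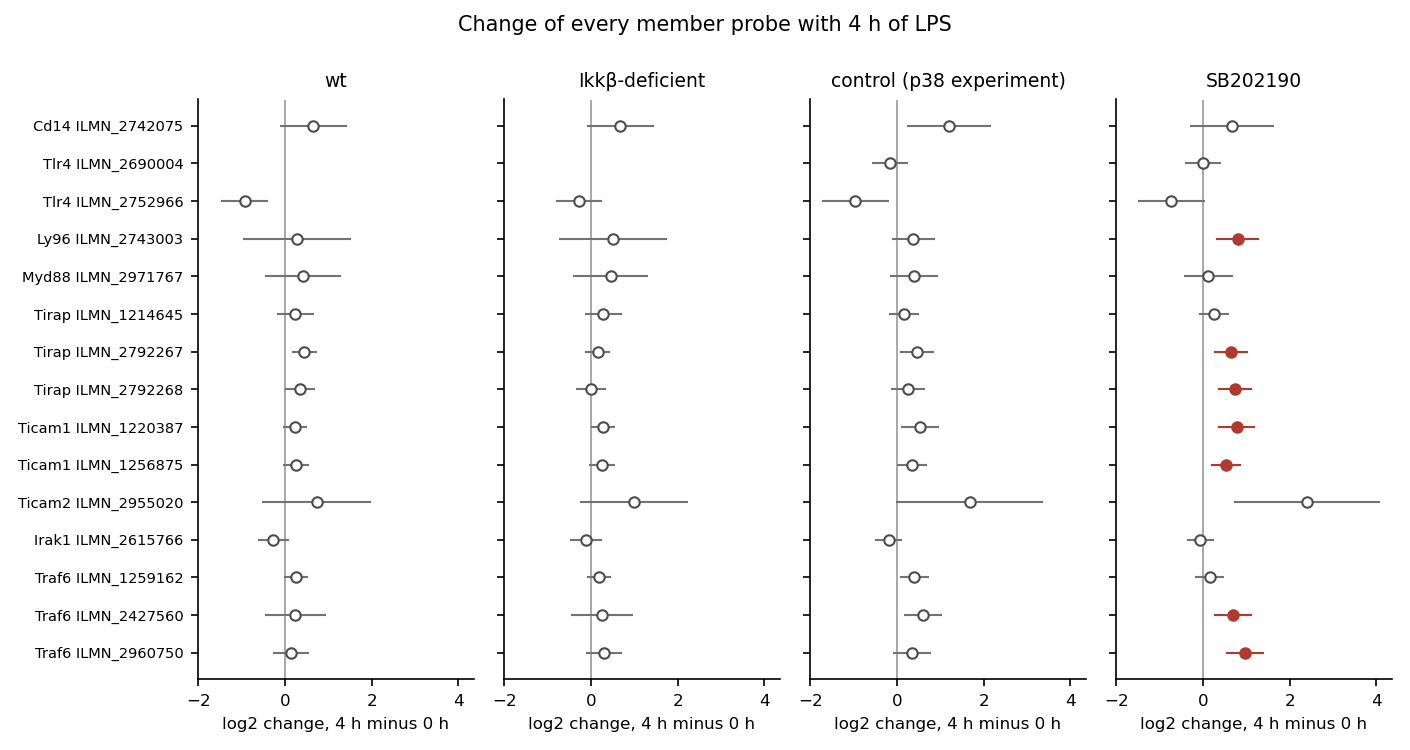
Log2 change from 0 h to 4 h of LPS for every member probe in wt, *Ikkβ*-deficient, p38 control and SB202190-treated BMDMs, as limma estimates with 95% intervals from fits of 12 arrays, filled where the adjusted p over all probes was under 0.05. The 7 filled points are all in SB202190-treated cells and all above 0, and *Tlr4* ILMN_2752966 lies below 0 in all 4 panels.

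In the control cells of the p38 experiment *Tlr4* was again lower and *Ticam2* higher after LPS on all 3 array pairs, and *Cd14* was higher on 2 of 3. *Tlr4* ILMN_2752966 read 1040, 895 and 2016 at 0 h and 368, 851 and 801 at 4 h. Replicates 1 and 3 stood at 0.354 and 0.397 of their value at 0 h and replicate 2 at 0.950, and the groups did not overlap. The log2 change of −0.97 (95% interval −1.72 to −0.22) did not pass with all arrays (limma adjusted p = 0.117) and was −1.42 without control replicate 2 (adjusted p = 0.0112). Its second probe, detected on 3 of 12 arrays, read 103 to 163 in control cells.

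*Cd14* read 7099, 26734 and 24217 at 0 h and 46245, 24719 and 48700.2 at 4 h in these cells. The ratio was 6.51 on replicate 1 and 2.01 on replicate 3, and 0.925 on replicate 2, which was high at 0 h. *Ticam2* read 464, 269 and 752 at 0 h and 2535, 298 and 4062 at 4 h, ratios of 5.46, 1.11 and 5.40. The log2 changes were 1.20 (SE 0.432; limma adjusted p = 0.126) and 1.68 (SE 0.756; adjusted p = 0.210), and without control replicate 2 they were 1.86 (adjusted p = 0.00623) and 2.44 (adjusted p = 4.05e-05).

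Over all control arrays none of the 15 member probes passed for LPS, against 5.72% of all probes. Of the 15, 8 had an unadjusted limma p under 0.05, against 23.4% of all probes. Without control replicate 2, a choice made after the data were seen, 10 of 15 passed against 33.3% of all probes. The 10 probes were *Cd14*, *Myd88*, *Ticam2*, both *Ticam1* probes, 2 *Tirap* and 2 *Traf6* probes, all higher, and *Tlr4*, lower. In the rank-matched intensities none of the 15 passed, against 0.133%. That fit used the same control arrays, control replicate 2 included, so it is no separate test of the control response. With all arrays 5 member probes did not overlap, where 14.9% of all probes did not. They were *Ticam1* ILMN_1220387 and 2 *Traf6* probes, higher, and *Tlr4* ILMN_2752966 and *Irak1*, lower. The median log2 change of the 15 probes was 0.37 against −0.03 over all probes.

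**Figure D3:**
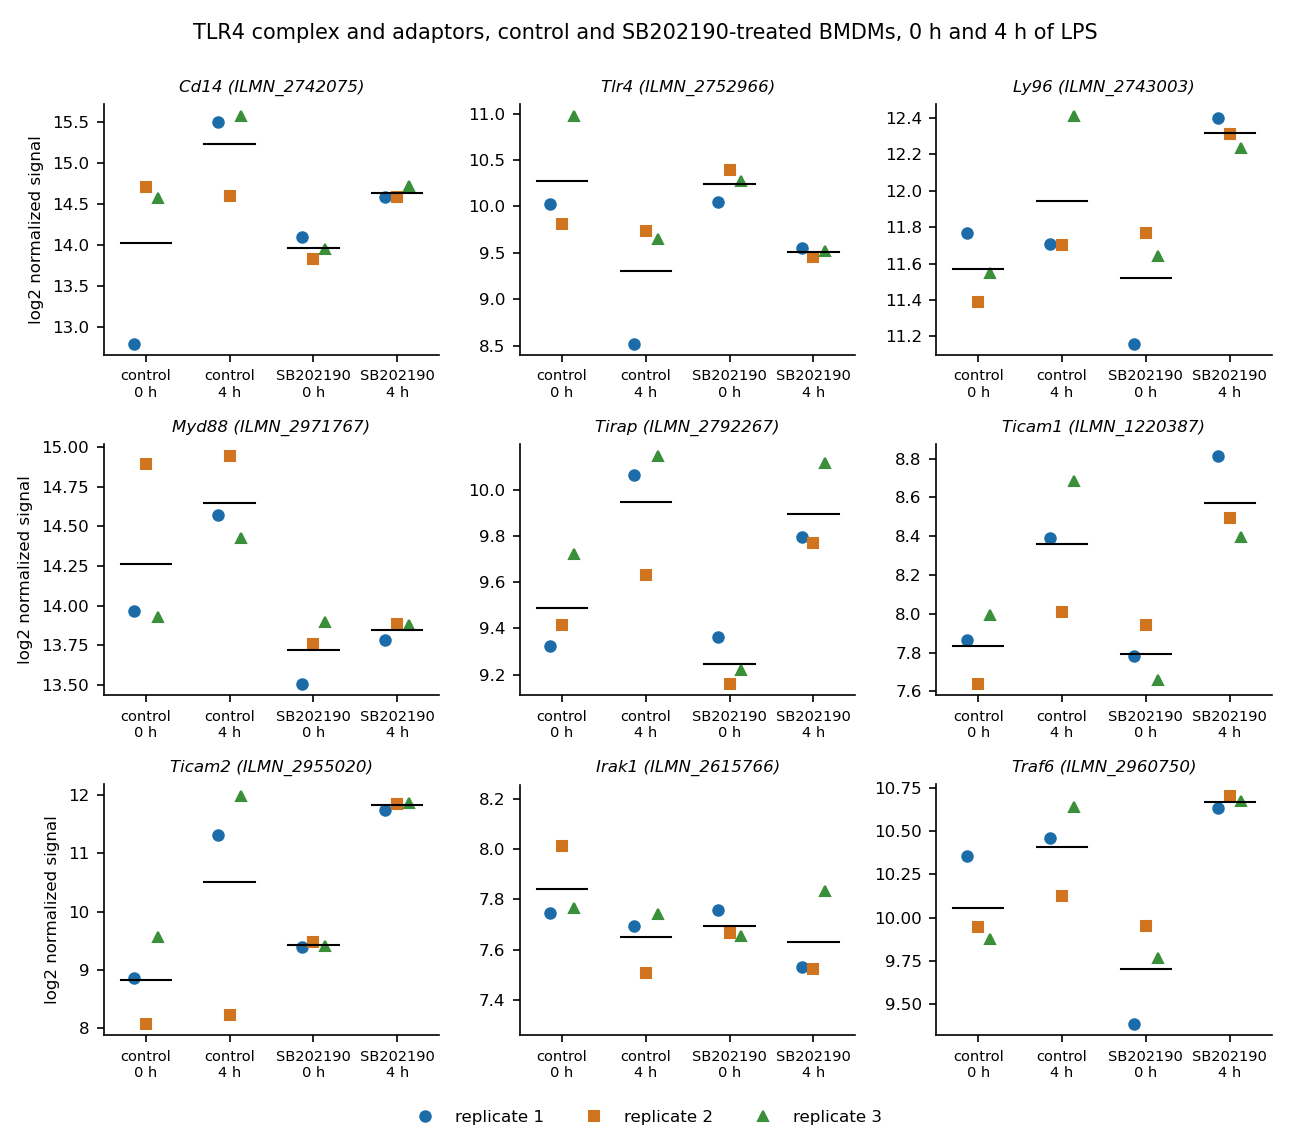
Log2 normalized signal of the brightest probe of each of the 9 measured genes in the p38 experiment, by group of 3 arrays under the labels of the normalized columns, with colour and shape giving the replicate number and the bar the group mean. SB202190 arrays lie close together within each time, while control replicate 2 hardly moves with LPS for *Cd14*, *Tlr4* and *Ticam2*.

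In SB202190-treated cells 7 of 15 member probes rose with LPS and none fell, against 8.91% of all probes called in either direction and 4.85% called higher. The 7 probes belonged to *Ly96*, *Ticam1*, *Tirap* and *Traf6*. With the replicate number as a block 5 passed, against 9.72% of all probes. *Ly96*, *Ticam1* ILMN_1256875 and *Traf6* ILMN_2427560 then had limma adjusted p-values of 0.0536, 0.0555 and 0.0522, and *Ticam2* one of 0.0478. *Ly96* read 2289, 3484 and 3192 at 0 h and 5413, 5095.0 and 4825 at 4 h, a log2 change of 0.80 (SE 0.216; limma adjusted p = 0.0449). All 3 arrays at 4 h lay above all 3 at 0 h.

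*Ticam1* ILMN_1220387 read 220.4, 246 and 202 at 0 h and 450.2, 361 and 337 at 4 h with SB202190, and ILMN_1256875 read 184, 164 and 169 against 247, 240 and 257. Neither probe overlapped between the times, and the changes were 0.78 (SE 0.187) and 0.53 (SE 0.147; limma adjusted p = 0.0285 and 0.049). *Tirap* ILMN_2792267 rose from 658, 573 and 597 to 888, 873 and 1109 and ILMN_2792268 from 521, 554 and 506 to 947, 823 and 867, by 0.64 (SE 0.171) and 0.74 (SE 0.166; adjusted p = 0.0418 and 0.0226). The third *Tirap* probe, ILMN_1214645, did not pass, with a change of 0.25 (adjusted p = 0.319), so the probes of this gene disagreed.

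*Traf6* ILMN_2960750 read 671, 992 and 872 at 0 h and 1588, 1667 and 1631 at 4 h with SB202190, the best supported rise of the members at 0.97 (SE 0.188; limma adjusted p = 0.0132). ILMN_2427560 rose from 215, 221 and 253 to 378, 354 and 373, by 0.68 (SE 0.188; adjusted p = 0.0466), whereas ILMN_1259162 gave 0.15 (adjusted p = 0.580). Of the patterns searched, the promoter windows of *Ticam1*, *Tirap* and *Traf6* printed above shared only that of NF-κB, which 50.8% of all windows hold. Both windows of *Irak1*, which was not called, held the NF-κB pattern too.

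*Ticam2* had the largest log2 change of the members with SB202190, from 668, 708 and 681 at 0 h to 3444, 3708 and 3738 at 4 h, ratios of 5.16, 5.24 and 5.49. Its log2 change of 2.40 (95% interval 0.74 to 4.07) missed the threshold (limma adjusted p = 0.0722, and 0.0478 with the block) in a fit whose spread also came from the control arrays, with an SD of 2.01 at 4 h in control and 0.07 in SB202190-treated cells. A fit of the SB202190 groups alone called 11 member probes, against 48.5% of all probes. *Tlr4* ILMN_2752966 read 1062, 1344 and 1235 against 753, 701 and 736, a change of −0.73 (adjusted p = 0.216) without overlap. *Cd14* read 17426, 14477 and 15847 against 24478, 24478 and 26831 (0.67, adjusted p = 0.392), and *Myd88* 11661, 13888 and 15291 against 14084, 15146 and 15055 (0.12, adjusted p = 0.826).

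Of the 6 SB202190 columns behind these calls, 4 have a rank order found in no intensity column. In the rank-matched intensities none of the 15 probes passed (limma adjusted p = 1 for every one, against 0.0% of all probes). Of the 6 SB202190 arrays in that fit, the 2 on BeadChip 3 took their label from a normalized column, while the 4 on BeadChips 1 and 2 stood under their own labels, which no normalized column bore out. *Ticam2* then read 217, 192 and 484 at 0 h and 259, 216 and 2544 at 4 h on the 3 BeadChips, so that the third stood apart, and its log2 change was 0.94 (SE 1.07). *Traf6* ILMN_2960750 read 779.8, 854 and 672 at 0 h and 879, 818 and 1135 at 4 h. The 8 LPS-responsive genes had median log2 changes of 0.83, 0.89 and 4.92 on BeadChips 1, 2 and 3 with SB202190. In the normalized columns 11 probes did not overlap between the times, 10 higher and 1 lower, where 56.2% of all probes did not. The members' median log2 change was 0.64 against −0.03 over all probes.

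**Figure D4:**
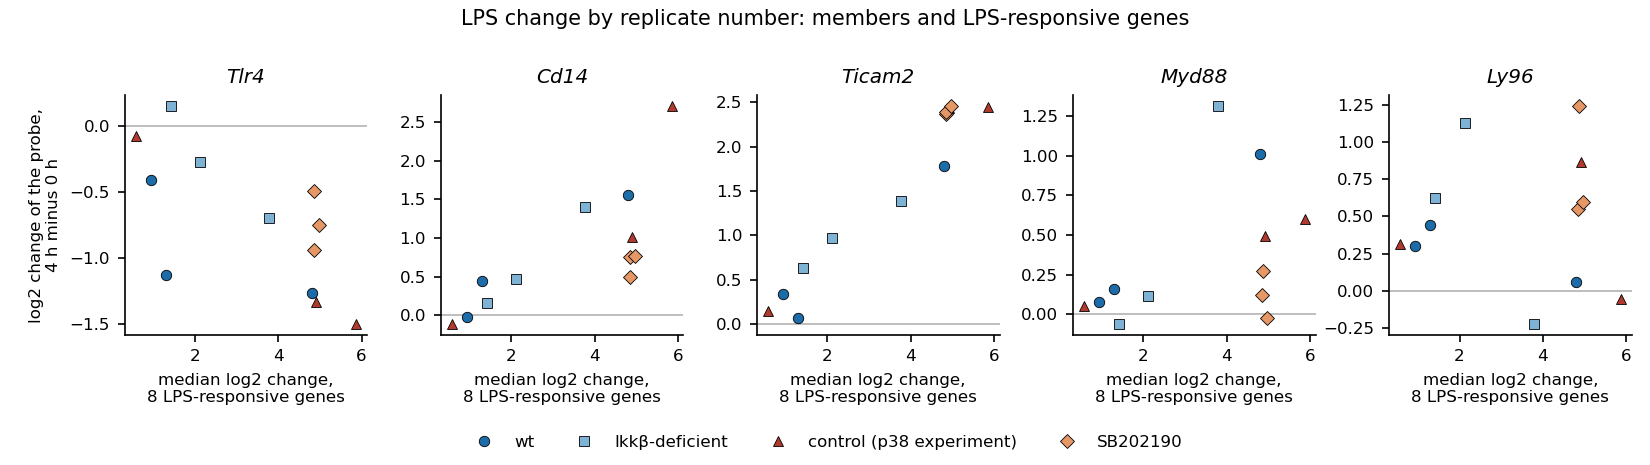
Log2 change with LPS of *Tlr4*, *Cd14*, *Ticam2*, *Myd88* and *Ly96* (vertical axis) against the median log2 change of 8 LPS-responsive genes (horizontal axis) for each replicate number of the 4 kinds of cells, from the normalized columns. The highest changes of *Cd14* and the lowest of *Tlr4* lie at 5.87 on the horizontal axis, and the 3 SB202190 points stand at 4.86, 4.85 and 4.97 on the horizontal axis.

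Across the 12 arrays of each experiment *Tlr4* ran opposite to the mean level of the 8 LPS-responsive genes, with Pearson's r of −0.75 in the IKKβ and −0.74 in the p38 experiment. *Cd14* ran with it, at 0.82 and 0.84, *Tirap* at 0.72 and 0.85, *Ticam1* at 0.76 and 0.78, *Traf6* at 0.62 and 0.74 and *Myd88* at 0.85 and 0.45. *Ticam2* gave 0.43 and 0.66, *Ly96* 0.05 and 0.65 and *Irak1* −0.60 and −0.14. These are descriptions over arrays that share BeadChips and times. Over all 24 arrays, each experiment centred on its own mean, the probes most like *Tlr4* among 12002 compared were *Tm6sf1* (r = 0.88), *Zfp608* (0.87) and *Mertk* (0.85). Those most like *Cd14* were *Relb* (0.91), *Gpr18* (0.90) and *Zc3h12a* (0.89), and those most like *Myd88* were *Sap30* (0.94), *Gcnt2* (0.93) and *Golga3* (0.92).

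Comparing SB202190-treated with control cells directly, no member passed at 0 h or at 4 h, against 0.0% and 2.63% of all probes. At 0 h 14 of 15 probes were lower with SB202190, with a median of −0.24 against 0.00 over all probes. Of the 15, 3 had an unadjusted limma p under 0.05, against 9.79% of all probes. The 4 probes that did not overlap at 0 h were *Myd88*, 2 *Tirap* probes and *Traf6* ILMN_1259162, all lower, where 15.8% of all probes did not. At 4 h *Myd88* and 2 *Traf6* probes did not overlap, all lower, where 33.1% did not, and the median of the 15 was −0.02 against 0.00. The methods' t-test called none at either time after adjustment. At 4 h 2 member probes had an unadjusted limma p under 0.05, against 19.9% of all probes.

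With all control arrays, *Myd88* had the lowest difference of the members between SB202190 and control at both times. Control arrays read 15995, 30388 and 15633 at 0 h and 24305, 31548 and 22056 at 4 h, above all the SB202190 values of 11661 to 15291 and 14084 to 15146. The difference was −0.54 (95% interval −1.07 to −0.00; limma adjusted p = 0.505) at 0 h and −0.80 (SE 0.243, 95% interval −1.33 to −0.26; adjusted p = 0.106) at 4 h. Without control replicate 2 the 4 h difference was −0.65 (adjusted p = 0.00711), where 7.34% of all probes were called lower. Against control replicate 3 alone, a single array, it was −0.58. In the rank-matched intensities it was −0.23 (SE 0.363; adjusted p = 0.997) at 4 h and 0.20 at 0 h, so its direction at 0 h depended on which table was used.

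*Traf6* ILMN_1259162 read 291, 325 and 338 at 0 h and 505, 377 and 381 at 4 h in control cells, and 266, 282 and 251 against 283, 325 and 279.5 with SB202190. The 4 h difference was −0.50 (SE 0.141; limma adjusted p = 0.0878), −0.57 without control replicate 2 (adjusted p = 0.0221) and −0.28 from the rank-matched intensities (adjusted p = 0.897). The brightest *Traf6* probe, ILMN_2960750, went the other way at 4 h, at 0.26 (adjusted p = 0.455), so the probes of *Traf6* disagreed. *Cd14* differed by −0.60 (95% interval −1.55 to 0.36) and *Ticam2* by 1.32 (95% interval −0.35 to 2.99) at 4 h. For *Cd14* at 4 h, control replicates 1 and 3 lay above all the SB202190 values of 24478 to 26831. Control replicate 2, at 24719, lay within them. At 0 h the differences were −0.07 for *Cd14* and −0.03 for *Tlr4* (limma adjusted p = 0.959 and 0.977). Control replicates 1 and 2 of *Tlr4* lay below all the SB202190 arrays at 0 h and replicate 3 above them, and for *Cd14* control replicate 1 lay below them and replicates 2 and 3 above.

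The change with LPS differed between SB202190 and control for none of the 15 probes (0.0148% of all probes called). Of the 15, 1 had an unadjusted limma p under 0.05, against 5.24% of all probes. That probe was *Traf6* ILMN_2960750, whose change was higher with SB202190 by 0.62 (95% interval 0.03 to 1.20, limma adjusted p = 0.924). The corresponding differences were 0.73 (SE 1.07) for *Ticam2* and −0.53 (SE 0.611) for *Cd14*. The 7 calls with SB202190 and none in the control are thus not a shown difference between the treatments.

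**Figure D5:**
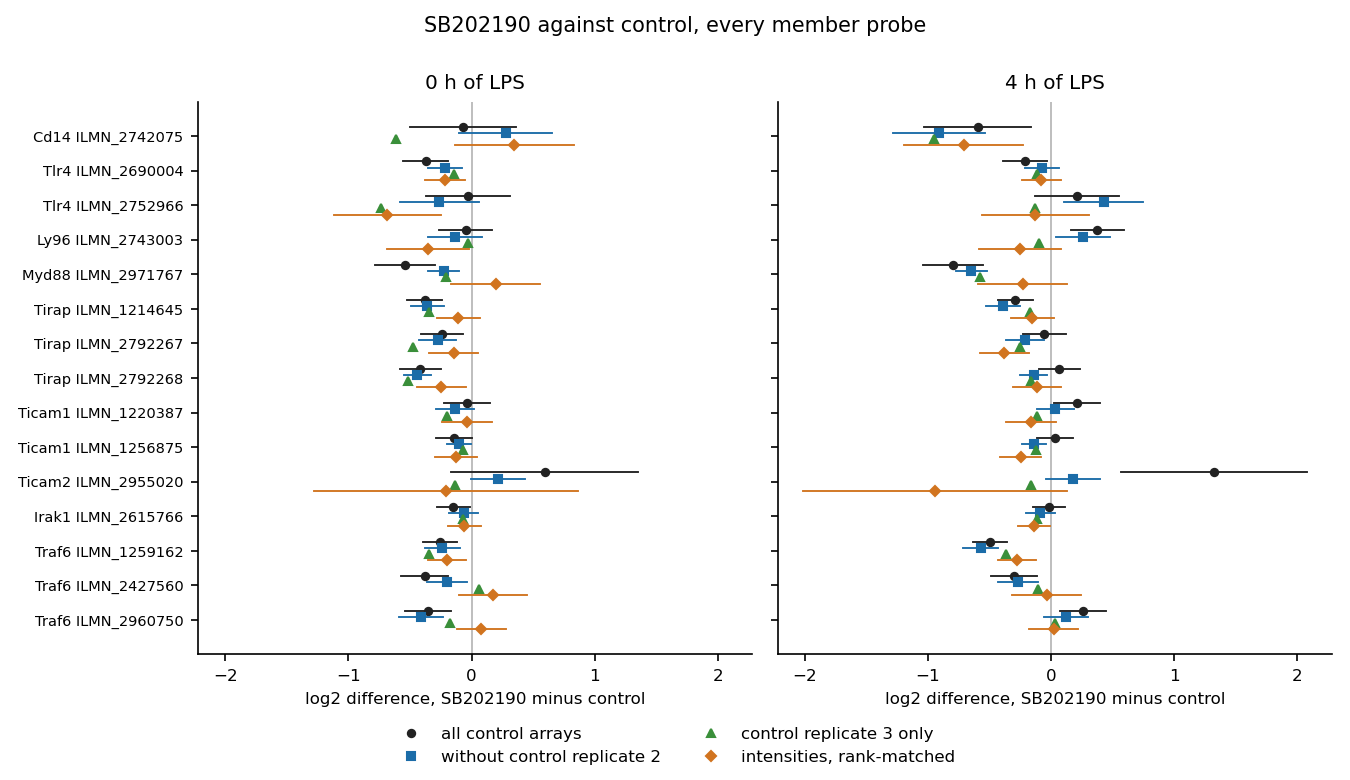
Log2 difference, SB202190 minus control, for every member probe at 0 h and 4 h of LPS, as limma estimates with bars of 1 SE, from all control arrays, without control replicate 2, with control replicate 3 only (a single array, drawn with no bar), and from the rank-matched intensities. *Myd88*, *Traf6* ILMN_1259162, *Cd14* and some other probes lie below 0 at 4 h in all 4 settings. At 0 h *Ticam2*, *Myd88*, *Cd14* and some other probes change sign between settings.

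Genes around the complex were read from 5 lists, with all normalized columns under their own labels. Their counts stand beside 5.72% of all probes called for LPS in the p38 control and 8.91% with SB202190, and with the replicate block beside 5.73% in wt, 3.2% in *Ikkβ*-deficient, 5.63% in p38 control and 9.72% in SB202190-treated cells. Of 8 genes for LPS delivery and TLR4-like receptors, no probe passed in wt cells, while with the block *Trem1*, an amplifier of TLR signalling, rose by 1.29 (limma adjusted p = 0.0159) and *Cd180*, a TLR4 homologue, fell by 0.97 (adjusted p = 0.00531). In the p38 control 1 of 9 probes passed, *Trem1* ILMN_2428545 at 0.86 (adjusted p = 0.0242), and with the block the other *Trem1* probe passed too. The first probe was lower with SB202190 at 4 h, at −0.99 (adjusted p = 0.0202). Of 10 genes for TLR4 folding and trafficking, 9 had probes. Both *Rab10* probes, a small GTPase that carries TLR4 to the membrane, rose in the p38 control by 0.84 (adjusted p = 0.0312 and 0.0287). *Rab7b*, which directs TLR4 to lysosomes, fell by 3.46 with SB202190 (adjusted p = 0.0123) and by 1.21 in wt cells with the block (adjusted p = 0.0487).

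Among 19 inhibitors of TLR4 signalling, 17 had probes and 27 probes were tested in the p38 experiment. In the control 10 rose and 2 fell with LPS, and with SB202190 8 rose and 3 fell. *Tnfaip3*, a ubiquitin-editing enzyme that ends NF-κB signalling, rose by 3.30 in the control and 3.61 with SB202190 (limma adjusted p = 0.044 and 0.0235), and *Nfkbia*, encoding IκBα, by 2.13 and 2.26 (adjusted p = 0.0279 and 0.0148). By replicate, *Tnfaip3* changed by 5.015, 0.64 and 4.236 in the control and by 3.626, 3.549 and 3.658 with SB202190. Control replicate 2 already read 8284 at 0 h. At 4 h the control arrays (11889 to 13294) lay above those with SB202190 (7634 to 8523), while *Nfkbia* overlapped. Without the block none of the 27 probes passed for SB202190 against control at 4 h. *Irak3*, the inhibitory kinase of the IRAK family, rose by 1.75 in the control (adjusted p = 0.0422) and gave 1.51 in wt cells (adjusted p = 0.106, and 0.00935 with the block). In wt cells none of 25 passed without the block and 4 rose with it, and in *Ikkβ*-deficient cells 3 rose with the block.

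Of 22 kinases and ubiquitin enzymes downstream of the adaptors, 18 had probes. In the p38 control 5 of 27 probes rose and 1 fell, and with the block 2 rose and none fell. Both probes of *Irak2*, the kinase that takes over from IRAK1, rose by 1.29 and 1.28 (limma adjusted p = 0.0377 and 0.0367) but did not pass with the block (adjusted p = 0.054 and 0.0527). With SB202190 2 rose and 2 fell, 1 each way with the block, and *Ikbkb* alone passed between the genotypes. Of 15 other receptors that signal through MyD88 or TRIF, 12 had probes, and 1 of 15 probes rose in the p38 control, *Tlr1*, by 1.42 (adjusted p = 0.0287), while 1 fell with SB202190. Over these lists the median log2 change in the p38 control ran from −0.07 for folding and trafficking to 0.58 for the inhibitors, beside 0.37 for the members and −0.03 over all probes.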

How the data were processed

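Total RNA was labelled and hybridized to 24 Illumina MouseRef-8 v2 arrays. The authors deposited probe intensities with a detection p-value for each array, and normalized intensities on a linear scale, quantile-normalized by the authors in Partek separately for the 2 experiments. Values below 1 were set to 1 (the lowest was 56.7) and taken as log2. Each experiment was fitted with limma 3.58.1 in R 4.3.3 (group means, 12 arrays, eBayes), on probes with a detection p-value under 0.05 on at least 3 of 12 arrays, with Benjamini-Hochberg adjustment over all probes tested and a threshold of 0.05. Probes were named from the platform annotation (23978 with 1 symbol, 1719 with none). A gene's probes were kept apart. Every member was reported, and for the lists the probes that passed or had the smallest p. The members and lists were chosen with earlier results of these data known. The fits were also run on simulated data with independent arrays and the same spread in every group. That simulation does not cover the shared replicate effects or the unequal group spreads of these data.

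Nothing in the labels ties a group's 3 arrays to different animals or dishes. The p-values thus cover the spread between these arrays alone, which may be technical. In the IKKβ experiment arrays with the same replicate number, which share a BeadChip, deviated together (r from 0.414 to 0.926, 12 of 12 closest to their own number), so the number was used as a block where that changed a call. In the p38 experiment the control arrays at 0 h and 4 h did (r from 0.536 to 0.594), but pairs with an SB202190 array did not (r from −0.068 to 0.095), so there the block was an alternative. By rank order the normalized control replicates 1 and 2 matched intensity columns of BeadChips 2 and 1, and SB202190 replicate 2 matched those of BeadChip 3. The block of replicate 2 thus joined arrays of BeadChips 1 and 3. Alternatives covered filters, scaling, offset, weights, the methods' t-test, other sources of values and leaving out arrays. The fits without control replicate 2, with control replicate 3 only and from rank-matched intensities were chosen after seeing the data.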

Additional observations from a re-analysis of the deposited data

How the results depend on the processing

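In the IKKβ experiment the count of member probes past the threshold was 0 of 14 in each of the 5 comparisons under every setting run, leaving out arrays included, except that the replicate block gave 2 for LPS in wt cells. For LPS in the p38 control the count of 0 became 10 without control replicate 2 at both times, where 4506 of 13523 probes in all passed. It was 0 to 10 over the settings that left out arrays, and 8 without replicate 2 altogether (3402 of 13523). For LPS with SB202190 the count of 7, from probes of 4 genes, stood beside 1205 of 13523 probes in all. It became 3 with no detection filter (997 of 25697) and 4 with limma trend (1150 of 13523). With only the brightest probe of each of the 9 measured genes it was 4 (922 of 9123 in all). It became 11 with only the groups compared (6560 of 13523) or array weights (6373 of 13523). It was 0 with the SB202190 arrays averaged, with quantile-normalized intensities under their own labels, and with rank-matched intensities, replicate block or not. It ran from 0 to 8 when arrays were left out, and was 0 without replicate 1 or 3, or without any single SB202190 array at 4 h. For SB202190 against control at 4 h the count of 0 became 1 with only the groups compared (635 of 13523 probes in all). It became 2 without control replicate 2 (2297 of 13523). With arrays left out it was 0 to 2 at 4 h and 0 at 0 h. Intensities under their own labels turned 2 changes with SB202190, *Ticam1* ILMN_1256875 to −0.025 and *Tirap* ILMN_2792267 to −0.11. With control replicate 3 only, the control is 1 array a time and the spread comes from the SB202190 arrays alone. That setting is no test of the control, and its counts are left out. The cause of these shifts was not tested.

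In the p38 experiment 11 of 12 arrays were closest to their own replicate number, but only control pairs correlated. By rank order the number did not follow the BeadChip throughout. There the replicate block gave 5 calls for LPS with SB202190 in place of 7 (*Ly96*, 1 *Ticam1* and 1 *Traf6* probe lost, *Ticam2* gained). In the IKKβ experiment the block changed no call of a member other than *Tlr4* and *Tirap* in wt cells. Probes near background, *Tlr4* ILMN_2690004 among them, limit what can be seen.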
